A study of Mus musculus with 6 samples.

Results

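Regions assigned to the Wnt ligands, their Frizzled receptors and a set of close regulators were collected from CUT&Tag profiles of primary mouse cardiac fibroblasts. A region belonged to the group when the deposited gene symbol was a Wnt, Fzd or Sfrp gene, or Lrp5, Lrp6, Dkk1, Dkk2, Dkk3, Axin1, Axin2 or Ctnnb1. This gave 328 regions of 370756 in all, counting a region once per set, and all 41 genes that the rule takes from RefSeq had at least 1 region. The 6 libraries formed a T set and an S set of 3 libraries each, with 1 library per treatment. The treatments were NC (an abbreviation the labels do not spell out), TGF-b alone, and TGF-b plus siRNA. CUT&Tag cuts and tags chromatin where an antibody binds, and the study used antibodies to TAZ, a coactivator that partners TEAD factors, and to SRF, a factor that binds CArG boxes. No label gives the antibody of a library, so T for TAZ and S for SRF is an inference. All cells were labelled heart, with no strain, age or replicate. By its label the siRNA was directed at TAZ for T libraries and at SRF for S libraries, the study's text speaks of Piezo2 siRNA with a scrambled control, and the series design speaks of a Tet3 deletion by Cre virus. Whether any or all of the 6 libraries carried that deletion is not given in the sources used here, and the siRNA is therefore called only the siRNA of its set.

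Wnt proteins are secreted lipid-modified ligands that bind Frizzled receptors and, in the canonical branch, the coreceptors LRP5 and LRP6. Receptor engagement takes Axin away from the complex that destroys beta-catenin, the product of Ctnnb1, which then enters the nucleus and works with TCF/LEF factors. Sfrp proteins bind Wnt ligands outside the cell and Dkk proteins occupy LRP5 and LRP6, so both families dampen the signal. In the heart the pathway is active in development and returns after injury, where fibroblasts are among the responding cells.

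Each value is a density, the reads in a window of 2 kb with 1 read added, at 0.5 per read. The authors then rescaled both libraries of each pair along a straight line. The log2 ratio of 2 densities is therefore not the plain ratio of the reads. Counts of reads were recovered by undoing that line. All log2 ratios are the later library over the earlier, TGF-b over NC or siRNA over TGF-b, and the 95% intervals beside them are exact binomial intervals of the share of reads, which cover counting error only. With 1 library per treatment, treatments could not be tested, and every difference is between these libraries. A region entered a table when it was called in at least 1 of its 2 libraries. Of the 171 regions in the T set table of TGF-b against NC, 126 were called only in NC, 39 only in TGF-b and 6 in both. Of all 170890 regions of that table, 117769 were called only in NC, 43854 only in TGF-b and 9267 in both. The ratio of a region called in a single library is drawn toward that library by the call itself.

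Receptor promoters were among the places where both sets had member regions, and the 250 bases before the start of 3 of them are printed for that reason, with that of Wnt7a, which held 1 of the largest S set differences. They come from RefSeq on GRCm38.p6, 5′ to 3′ on the strand of the gene, whereas the region coordinates of the deposited tables are those of GRCm39, and no coordinate was carried from one build to the other. CpG pairs are in capitals. The lines hold 25 CpG for Fzd4 at chr7:89404116-89404365 on the plus strand, 32 for Fzd5 at chr1:64737751-64738000 on the minus strand, 17 for Fzd7 at chr1:59481897-59482146 on the plus strand, and 34 for Wnt7a at chr6:91411354-91411603 on the minus strand. The start of the transcript that the tables assign lies 11, 1, 277 and 10 bases from the RefSeq start, in that order.

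Fzd4: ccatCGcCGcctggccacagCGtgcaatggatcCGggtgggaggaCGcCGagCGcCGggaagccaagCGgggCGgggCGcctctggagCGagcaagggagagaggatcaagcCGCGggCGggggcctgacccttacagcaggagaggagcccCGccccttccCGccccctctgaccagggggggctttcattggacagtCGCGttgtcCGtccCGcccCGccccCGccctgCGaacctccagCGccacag

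Fzd5: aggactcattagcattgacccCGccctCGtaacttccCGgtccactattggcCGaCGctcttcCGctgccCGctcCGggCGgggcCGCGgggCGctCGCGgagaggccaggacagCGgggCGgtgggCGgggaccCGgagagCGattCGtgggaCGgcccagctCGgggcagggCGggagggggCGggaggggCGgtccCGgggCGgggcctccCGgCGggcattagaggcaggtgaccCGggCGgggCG

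Fzd7: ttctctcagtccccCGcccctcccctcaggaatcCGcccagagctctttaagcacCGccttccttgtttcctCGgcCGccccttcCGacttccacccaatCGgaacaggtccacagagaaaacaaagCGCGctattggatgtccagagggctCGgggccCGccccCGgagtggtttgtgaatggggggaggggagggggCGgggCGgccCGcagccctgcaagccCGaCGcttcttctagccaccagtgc

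Wnt7a: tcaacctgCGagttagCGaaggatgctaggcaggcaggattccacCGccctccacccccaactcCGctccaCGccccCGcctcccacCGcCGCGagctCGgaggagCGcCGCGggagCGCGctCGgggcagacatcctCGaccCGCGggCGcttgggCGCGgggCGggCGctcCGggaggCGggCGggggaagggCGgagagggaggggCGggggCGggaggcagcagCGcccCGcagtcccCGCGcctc

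Promoter windows of 300 bases, 250 before and 50 after the start, were found for 27 of the 41 genes, 31 windows in all. They held a median of 29 CpG, from 4 to 58, against 7 over all 32851 windows. Among genes with a T set region within 3 kb of a start in TGF-b against NC, the median was 32 over 15 member windows and 16 over all 14316 windows. The S set medians were 31 over 15 windows and 17 over 6137. Motifs were searched on both strands, with 1 count for a match that reads the same on either strand. The CArG box, searched by its name as CC, any 6 of A or T, and GG, was in 0 of the 31 windows and in 1.63% of all windows. GGAATG, the TEAD motif, was in 1 window (3.23%, against 14.7% of all), TGANTCA, the AP-1 motif, in 1 (3.23%, against 7.81%), and CTTTGAT, the TCF/LEF motif, in 2 (6.45%, against 3.73%). The absence of these letters says nothing of sites elsewhere.

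The TEAD letters lay 14 to 19 bases after a start of Wnt5b, a ligand of the noncanonical branch, and 30 bases around them at chr6:119467181-119467210 on the minus strand are shown with the motif in capitals. A TCF/LEF match began 51 bases before the first start of Wnt11, another noncanonical ligand, and its line covers chr7:98834862-98835111 on the plus strand with the motif in capitals. The tables assign T set regions to both of these starts.

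Wnt5b: cttgctgcttctCATTCCatgagctgggga

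Wnt11: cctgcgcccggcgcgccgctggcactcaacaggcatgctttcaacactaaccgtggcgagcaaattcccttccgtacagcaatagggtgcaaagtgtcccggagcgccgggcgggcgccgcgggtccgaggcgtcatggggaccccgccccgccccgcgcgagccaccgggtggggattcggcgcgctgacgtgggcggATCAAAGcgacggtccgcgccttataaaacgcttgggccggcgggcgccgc

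Over the whole group the T set differences in TGF-b against NC were close to those of all regions. In that table against NC the median log2 ratio of the 171 member regions was -0.69 (95% rank interval -0.90 to -0.46), and over all 170890 regions it was -0.65. Of the members, 24 were at least 2-fold higher in TGF-b (14.0%, against a background of 17.3% of all regions) and 70 at least 2-fold lower (40.9%, against 42.1%). The counting interval lay above 0 in 17 members (9.94%, against 12.3%) and below 0 in 41 (24.0%, against 25.5%). These shares were near their backgrounds. Against the median of all regions in place of 0, the interval lay above it in 32 members (18.7%, against 20.5%) and below it in 13 (7.60%, against 12.5%), so most T set members called below 0 in this table did not lie below that median beyond counting error. Setting the median of all regions to 0 turned the split of 24 higher and 70 lower into 44 (25.7%, against 26.7% of all regions on that scale) and 38 (22.2%, against 27.2%), so the direction of the group as a whole followed the scaling.

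Across the T set table of siRNA and TGF-b, the 142 member regions had a median log2 ratio of 0.62 (0.19 to 0.91) and all 180118 regions one of 0.97. At least 2-fold higher were 57 members (40.1%, against 49.7%) and at least 2-fold lower 30 (21.1%, against 16.2%). The interval lay above 0 in 40 (28.2%, against 29.0%) and below 0 in 19 (13.4%, against 9.34%). Against the median of all regions it lay above in 14 (9.86%, against 11.1%) and below in 41 (28.9%, against 20.8%). Without the authors' line the medians were 0.16 for the members and 0.51 for all regions. On the median-centred scale the member median was -0.35 and the split was 29 higher (20.4%, against 29.2% of all regions on that scale) and 52 lower (36.6%, against 28.9%). The member interval did not include the median of all regions, but it treats regions as independent. Members of 1 gene share a locus, and 37 of the 142 shared part of their window with another member, so that interval is too narrow.

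The S set held fewer regions, 48 of 52723 in TGF-b against NC. Their median log2 ratio was 0.18 (-0.26 to 0.73), and that of all regions was -0.20. Here 12 members were at least 2-fold higher (25.0%, against 17.4%) and 9 at least 2-fold lower (18.8%, against 26.7%), with the interval above 0 in 6 (12.5%, against 8.96%) and below 0 in 6 (12.5%, against 15.4%). Without the authors' line 21 of the 48 were at least 2-fold higher (43.8%), and so were 32.7% of all regions. With the siRNA, 49 of 52579 regions were members, and their median was -0.43 (-0.88 to -0.08), against -0.21 for all. At least 2-fold higher were 5 (10.2%, against 15.1%) and lower 12 (24.5%, against 27.8%), with the interval above 0 in 4 (8.16%, against 7.55%) and below 0 in 10 (20.4%, against 17.2%). The TGF-b library enters both comparisons of its set, so these values are given side by side and not set against each other.

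**Figure D1:**
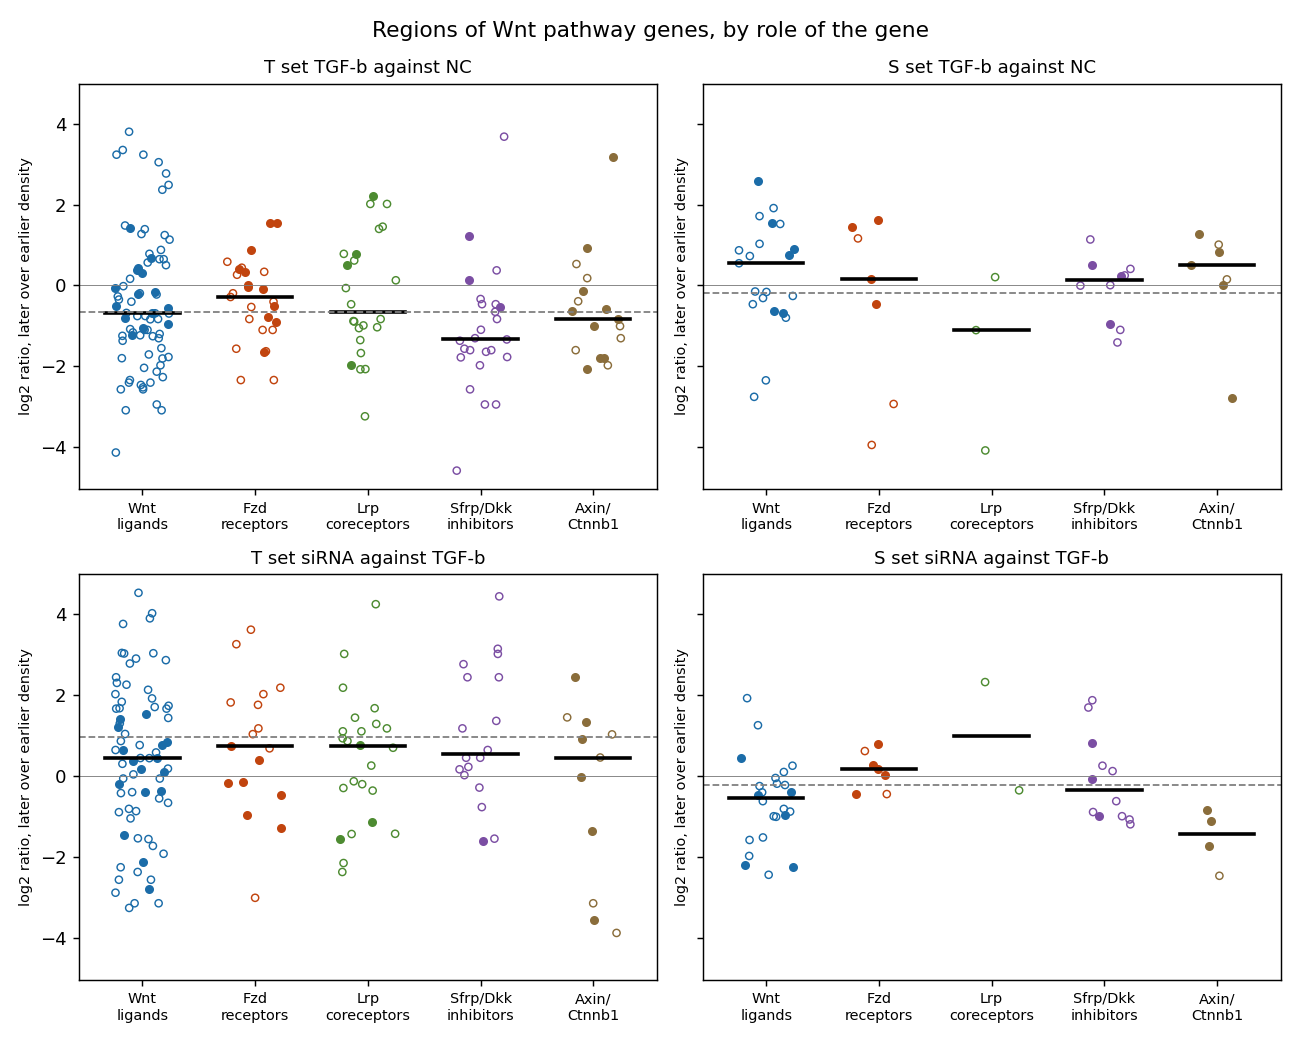
Each circle is 1 region, placed by the role of its gene (x axis) and its log2 ratio of densities (y axis), filled when within 3 kb of a start; black bars are medians, the dashed line is the median of all regions and the grey line is 0. In T set TGF-b against NC the Sfrp and Dkk inhibitors sat lowest, with a median of -1.34, and the Fzd receptors highest, with -0.29, but within 3 kb of a start the medians were 0.12 over 3 inhibitor regions and -0.01 over 12 receptor regions.

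Distance from a start separated the T set values more than the group did. The 44 members within 3 kb of a start had a median of -0.15 in TGF-b against NC, and the 127 beyond had -0.89. All regions differed in the same direction, -0.18 within 3 kb and -0.77 for gene regions beyond. With the siRNA the member medians were -0.02 for 33 near regions and 0.87 for 109 distant ones, against 0.33 and 1.04 for all. Among S set regions, the 18 near members had 0.50 and the 30 distant ones 0.00 in TGF-b against NC, against 0.20 and -0.31. With the siRNA they were -0.43 and -0.42, against 0.05 and -0.19. By annotation, 125 of the 171 T set regions (73.1%) were intronic and 26 (15.2%) promoters, against 74.6% and 12.9% of gene regions. Of the 48 S set regions with TGF-b, 31 (64.6%, against 72.2%) were intronic, 7 (14.6%, against 13.9%) promoters and 4 (8.33%, against 2.62%) in a 5′ UTR, and 18 (37.5%, against 28.4%) lay within 3 kb of a start. With the siRNA 17 of 49 did so (34.7%, against 33.4%).

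The ligands supplied 78 of the 171 T set regions and 21 of the 48 S set regions in TGF-b against NC. Of 19 Wnt genes, 16 had a T set region and 12 an S set region. Their medians were -0.69 and 0.55 with TGF-b, and 0.45 over 72 regions and -0.54 over 24 with the siRNA. In the T set the ligands lay near the median of all regions in TGF-b against NC.

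Wnt1 (ENSMUSG00000022997), a canonical ligand, had the largest S set ratio of the group in TGF-b against NC. Its intronic region at chr15:98689220-98689413, 1578 bases after the start, held 4 NC reads, 43 TGF-b reads and 21 siRNA reads. TGF-b stood highest, and the log2 ratios were 2.57 (1.40 to 4.80) and -0.97 (-1.83 to -0.22). The promoter region of Wnt1, called in the siRNA table alone, held 15 reads in TGF-b and 20 with the siRNA, a log2 ratio of 0.46 (-0.56 to 1.55). No Wnt1 region was called in the T set.

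Wnt7a (ENSMUSG00000030093), the ligand whose promoter is printed above, had a 5′ UTR region at chr6:91388035-91388214, 221 bases after the start. Reads in the S set numbered 6 for NC, 29 for TGF-b and 5 for the siRNA. The ratios were 1.54 (0.42 to 3.27) and -2.24 (-4.18 to -1.06), and NC and siRNA were alike in reads. The 2 other S set regions of Wnt7a in TGF-b against NC were intronic and neither reached 2-fold. An intron of Wnt3a, a canonical ligand, held 9, 29 and 9 reads in the S set, with ratios of 1.03 (0.01 to 2.40) and -1.52 (-2.88 to -0.50). Wnt6 had overlapping regions in the siRNA tables of both sets, in an intron 1347 and 1412 bases after the start, with 9, 14 and 13 reads in the T set, and 22 in TGF-b and 15 with the siRNA in the S set.

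Wnt7b, a ligand of epithelial and vascular development, had 4 of 6 T set regions at least 2-fold higher in TGF-b, against 17.3% of all regions. Its intron regions at chr15:85440045-85440387 and chr15:85440867-85440997 held 4 and 2 NC reads, 25 and 27 TGF-b reads, and 4 and 6 siRNA reads. Their windows overlap, so they are not separate measurements. The ratios to NC were 2.48 (1.22 to 4.73) and 3.35 (1.89 to 7.0), and the ratios of siRNA to TGF-b were -1.92 (-4.17 to -0.65) and -1.54 (-3.27 to -0.40). The Wnt7b promoter region was at 8 reads in NC and 6 in TGF-b, a ratio of -0.22 (-2.08 to 1.44).

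Wnt11 differed along its length. The T set regions at its first start held 29 NC reads and 14 TGF-b reads at position -245 from it, and 33 and 13 reads 625 bases after it. The windows of this pair overlap. Their ratios were -0.95 (-2.04 to -0.03) and -1.23 (-2.35 to -0.33), and both intervals include -0.65, the median of all regions. The region at position -779 from a second start held 13 NC reads, 17 TGF-b reads and 2 siRNA reads, and the siRNA ratio was -2.13 (-5.79 to -0.56). The intronic regions 12475 and 12985 bases from the start held 5 and 4 reads in TGF-b and 29 each with the siRNA, ratios of 2.79 (1.61 to 4.73) and 3.05 (1.81 to 5.29). Their windows overlap. A promoter region at position -1609 held 6 TGF-b reads and 7 siRNA reads, a ratio of 0.65 (-1.12 to 2.53). Of the 6 Wnt11 regions in the T set siRNA table, 3 were at least 2-fold higher and 1 lower, against 49.7% and 16.2% of all regions.

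At the Wnt5b start that carries the TEAD letters, 2 promoter regions with overlapping windows held 12 reads each in TGF-b and 21 and 24 with the siRNA in the T set. The ratios were 1.23 (0.18 to 2.43) and 1.41 (0.41 to 2.60). Both intervals include 0.97, the T set median over all regions. An S set intronic region of Wnt5b, 1318 bases after another start, held 5, 14 and 2 reads, with a siRNA ratio of -2.19 (-5.86 to -0.56). In an intron of Wnt9a the T set reads were 27, 18 and 1, a siRNA ratio of -2.80 (-9.10 to -1.06).

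The other ligands had shallower or mixed regions. In the S set, the 3′ UTR region of Wnt8a, a ligand of early embryos, held 2, 16 and 3 reads, with a TGF-b ratio of 1.91 (0.32 to 5.57) and a siRNA ratio of -1.97 (-4.72 to -0.49). Wnt4, a ligand of kidney and gonad development, had a T set 3′ UTR region with 6, 16 and 5 reads, ratios of 1.39 (0.10 to 3.17) and -1.04 (-3.02 to 0.30), and an intronic region with 21, 12 and 0 reads. Wnt10a had an exonic region 95 bases from its start with 11 reads in TGF-b and 24 with the siRNA, a ratio of 1.53 (0.51 to 2.77), whose interval includes the median of all regions, 0.97. The intronic region of Wnt10a 9750 bases away held 24, 9 and 6 reads, with a TGF-b ratio of -1.25 (-2.63 to -0.18), whose interval includes -0.65, again that median. Wnt9b held 14 TGF-b reads and 3 siRNA reads at its T set promoter, a ratio of -1.45 (-4.21 to 0.07). Wnt16 had 19 NC reads and 18 TGF-b reads in an S set intron 521 bases from its start, and in the T set an intron at position -46771, inside Cped1, with 19 and 0 reads, at least 4.38-fold lower in TGF-b when 3 reads are allowed for the 0, with an upper interval limit of -2.03. Wnt3, a canonical ligand, had T set introns at 18 and 1 reads and at 0 and 11 reads in NC and TGF-b, so its regions went both ways. Wnt2b, Wnt8b and Wnt10b had 1 region in each table that listed them, and Wnt2 had 6 T set regions with TGF-b, of which 3 were at least 2-fold lower, against 42.1% of all regions.

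Wnt5a (ENSMUSG00000021994), a noncanonical ligand, supplied the most T set regions with TGF-b, 27 of the 171. It had 6 of the 48 S set regions with TGF-b, where Dkk2 had 7. Of the 27, 25 lay inside Erc2, a neighbouring gene for a presynaptic scaffold protein, at 35.7 to 216 kb from the assigned start, and these 25 had a median of -1.26, with 4 at least 2-fold higher and 14 lower, against 17.3% and 42.1% of all regions. All gene regions beyond 3 kb had a median of -0.77. The promoter region, at position -297 from the start, held 14 reads in NC and 7 in TGF-b, a ratio of -0.80 (-2.44 to 0.51). Assignment was by the nearest start, so regions in Erc2 are counted for Wnt5a by position alone. Among in-gene members of that table, 45 of 129 (34.9%) lay inside another gene, against 26.8% of all regions inside a gene. Of these 45, 25 were the Wnt5a regions in Erc2, and without Wnt5a the share was 20 of 104 (19.2%). The other hosts included Gm29865 for 5 regions of Dkk2, Plekhm3 for 4 of Fzd5, Cped1 for 4 of Wnt16 and Ulk4 for 3 of Ctnnb1. Leaving out Wnt5a, the median of the remaining 144 regions was -0.66. In the S set with TGF-b, 1 of the 6 Wnt5a regions was at least 2-fold higher and 2 lower, against 17.4% and 26.7% of all regions. Those 2, inside Erc2 at positions -200153 and -95661, held 16 and 17 NC reads and 4 and 3 TGF-b reads. Their ratios were -2.35 (-4.62 to -0.95) and -2.75 (-5.50 to -1.30).

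**Figure D2:**
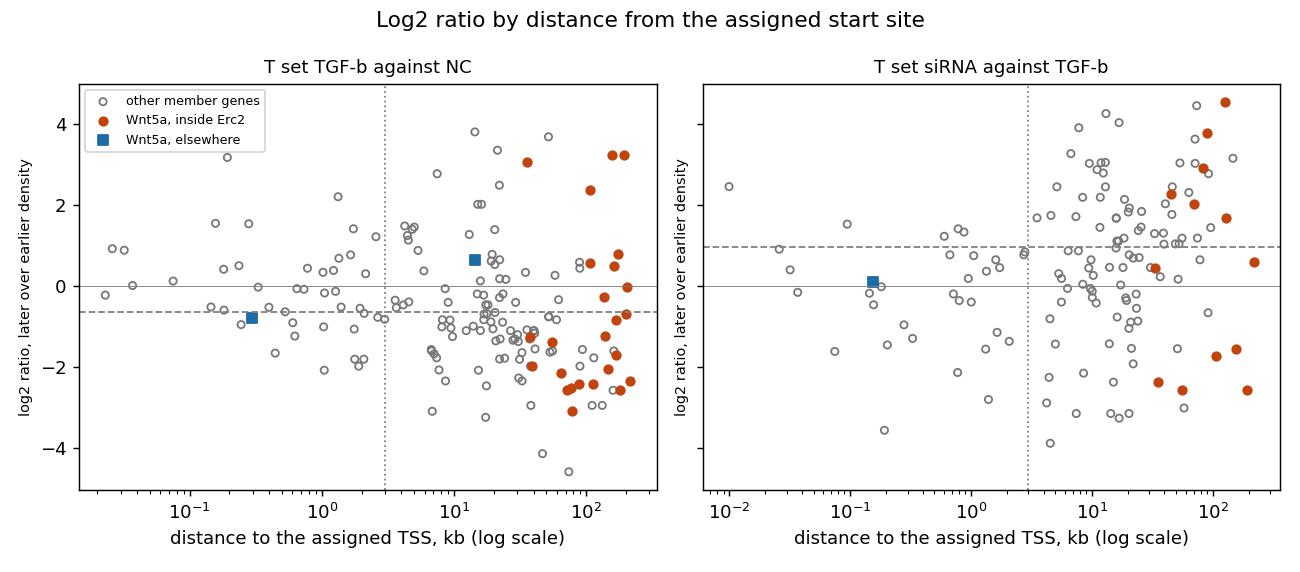
Log2 ratio of densities (y axis) against distance to the assigned start on a log scale (x axis, distances under 10 bases drawn at 10), for the member regions of the T set; the dotted line is 3 kb and the dashed line the median of all regions. The Wnt5a regions inside Erc2 lie between 33.5 and 221 kb from the start in both panels together and take both signs.

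All 10 Fzd genes had a T set region and 6 an S set region. The 27 T set regions had a median of -0.29 in TGF-b against NC, and the 12 of them within 3 kb of a start had -0.01. These 27 regions held a median of 13 reads in NC and 12 in TGF-b.

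Fzd5 (ENSMUSG00000045005), a canonical receptor, had the deepest receptor region. Its 5′ UTR region at chr1:64776577-64777166 held 63 NC reads, 66 TGF-b reads and 42 siRNA reads in the T set. The ratios were 0.01 (-0.51 to 0.54) and -0.16 (-0.76 to 0.41), so neither interval excluded 0 on the deposited scale. On the median-centred scale the ratios became 0.66 and -1.13, both outside those intervals, so the reading depends on the scaling. The overlapping S set region at chr1:64776839-64776998 held 6, 27 and 27 reads, ratios of 1.43 (0.30 to 3.17) and 0.04 (-0.78 to 0.87), with NC the low library.

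Fzd7, a receptor often tied to stem cells, had a promoter region at chr1:59521186-59521321 with 27, 26 and 7 reads in the T set, the siRNA library lowest. The ratios were -0.03 (-0.86 to 0.80) and -1.29 (-2.88 to -0.19). The overlapping S set region held 2, 13 and 14 reads, ratios of 1.63 (-0.04 to 5.30) and 0.18 (-1.01 to 1.40). Fzd4, the receptor of norrin in retinal vessels, held 22 reads in NC and 29 in TGF-b in the T set, at position -181, a ratio of 0.41 (-0.42 to 1.30). Its S set reads were 13, 22 and 26, ratios of 0.16 (-0.85 to 1.32) and 0.28 (-0.59 to 1.18). No interval at the Fzd4 promoter excluded 0. The T set interval with TGF-b lay above -0.65, the median of all regions in that table. The S set 3′ UTR region of Fzd4, at chr7:89061702-89061797, held 9 NC reads and 1 TGF-b read, a ratio of -2.93 (-9.23 to -0.93).

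Fzd2 and Fzd3 promoters had the largest T set receptor ratios with TGF-b. Fzd2 held 6 NC reads, 18 TGF-b reads and 9 siRNA reads, ratios of 1.55 (0.29 to 3.31) and -0.46 (-1.87 to 0.69). Fzd3, a receptor of planar polarity signalling, held 5, 15 and 5 reads, ratios of 1.53 (0.17 to 3.52) and -0.96 (-2.94 to 0.41). Both were low in NC, and neither siRNA interval excluded 0. Both siRNA intervals lay below 0.97, the median of all regions in that table, so the reading depends on the scaling. With TGF-b in the other direction, the 5′ UTR region of Fzd8 held 38 reads in NC and 11 in TGF-b, a ratio of -1.65 (-2.86 to -0.74). Fzd6 held 11, 20 and 19 reads in the T set and 11, 12 and 8 in the S set at its start, with all 4 intervals spanning 0. Its T set interval with TGF-b, -0.19 to 2.15, lay above -0.65, the median of all regions in that table. A second S set region of Fzd6, in an intron 4450 bases after the start, held 9 NC reads and 0 TGF-b reads, at least 3.85-fold lower in TGF-b when 3 reads are allowed for the 0, with an upper interval limit of -1.60. Fzd1 held 20, 13 and 8 reads at its T set promoter, where both intervals spanned 0. In the S set its exonic region 536 bases after the start held 13 TGF-b reads and 22 siRNA reads, a ratio of 0.78 (-0.23 to 1.94). Fzd9 held 17 NC reads and 8 TGF-b reads in a T set exon, a ratio of -0.90 (-2.41 to 0.30), and 5, 19 and 13 reads in an S set region inside Fkbp6, with ratios of 1.16 (-0.12 to 3.13) and -0.44 (-1.61 to 0.62). Fzd10 had a single region, with 8 TGF-b reads and 10 siRNA reads in the T set.

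Away from the start of Fzd5, its 3′ UTR region held 9, 2 and 20 reads, a siRNA ratio of 3.26 (1.74 to 6.92). The intronic region 58115 bases away, inside Plekhm3, held 18, 21 and 1 reads, a siRNA ratio of -3.01 (-9.31 to -1.30). Of the 8 Fzd5 regions in the T set siRNA table, 5 were at least 2-fold higher and this 1 lower, against 49.7% and 16.2% of all regions.

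**Figure D3:**
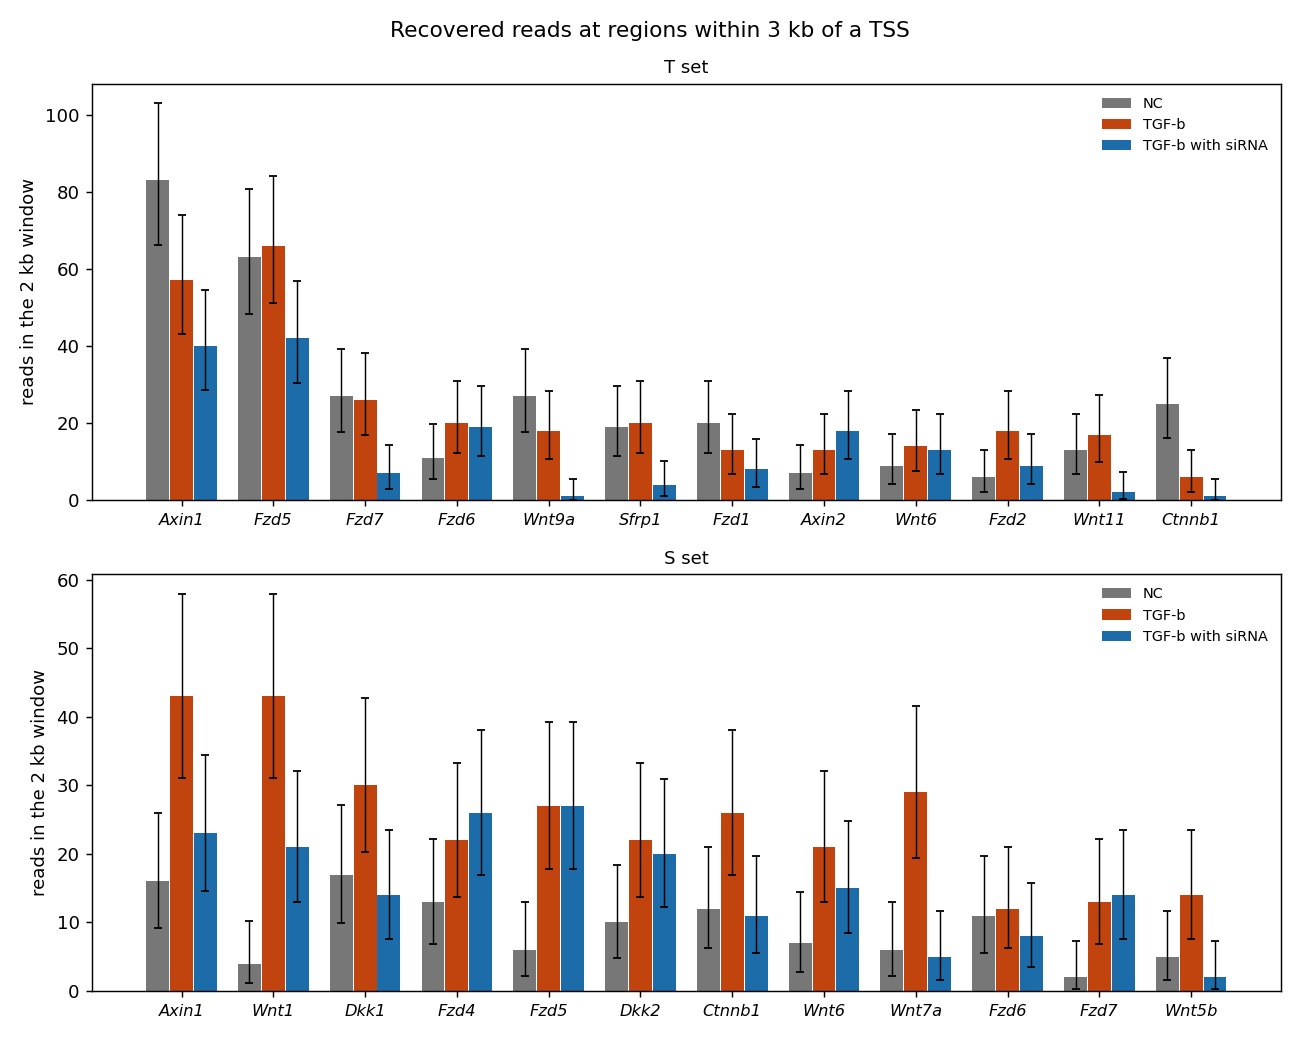
Recovered reads in the 2 kb window (y axis) in the 3 libraries of a set, for the 12 member genes with the most reads at a region within 3 kb of a start and in both tables; bars show the single library and whiskers exact 95% Poisson intervals. In the S set TGF-b exceeded NC most at Wnt1, with 43 reads against 4, and in the T set the siRNA library had 1 read at the Wnt9a and Ctnnb1 regions.

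The coreceptor genes Lrp5 and Lrp6 had 12 T set regions each with TGF-b and a joint median of -0.65. In Lrp5, an intronic region 5011 bases after a start held 9, 25 and 6 reads in NC, TGF-b and siRNA, ratios of 1.45 (0.40 to 2.83) and -1.43 (-3.17 to -0.28). Another, at position -23345 from a start, held 35, 18 and 11 reads, a TGF-b ratio of -0.89 (-1.84 to -0.07), an interval that includes the median of all regions, -0.65. In Lrp6, an intronic region held 20 reads in NC and 1 in TGF-b, a ratio of -3.24 (-9.54 to -1.52). The coreceptors had 3 S set regions with TGF-b, and none lay within 3 kb of a start. An Lrp6 intron 19681 bases after the start held 10 NC reads and 0 TGF-b reads, with an upper interval limit of -1.78. The 3′ UTR region of Lrp5 held 12 and 8 reads, a ratio of -1.11 (-2.66 to 0.25). Another Lrp6 intronic region held 3 and 6 reads, a ratio of 0.21 (-1.83 to 3.03).

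The secreted inhibitors had the lowest T set median of the roles with TGF-b, -1.34 (-1.64 to -0.52) over 25 regions, and 15 of these were at least 2-fold lower, against 42.1% of all regions. This order did not hold within 3 kb of a start, where the 3 inhibitor regions had a median of 0.12, the 12 receptor regions -0.01, the 15 ligand regions -0.22, the 4 coreceptor regions 0.63 and the 10 intracellular regions -0.73. Dkk2 supplied 14 of the 25 and 10 of the 15, all beyond 3 kb from the start. Its intronic region at chr3:131864957-131865086 held 26, 0 and 15 reads in NC, TGF-b and siRNA. With 3 reads allowed for the 0, TGF-b was at least 5.97-fold lower than NC and the siRNA library at least 5.45-fold higher than TGF-b. These bounds leave out the counting error of the 26 and 15 reads, and the log2 intervals end nearer 0, at -2.54 and 2.29. Of the 11 Dkk2 regions in the siRNA table, 7 were at least 2-fold higher with the siRNA and 1 lower, against 49.7% and 16.2% of all regions. For Dkk2 in the S set, the exonic region 888 bases after the start held 10, 22 and 20 reads, ratios of 0.50 (-0.56 to 1.82) and -0.08 (-1.03 to 0.86).

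Sfrp1, which binds Wnt ligands in the extracellular space, had a promoter region at chr8:23901374-23901512 with 19, 20 and 4 reads in the T set. NC and TGF-b were alike, with a ratio of 0.12 (-0.85 to 1.11), and the siRNA ratio was -1.61 (-3.87 to -0.28). The same promoter in the S set held 11 reads in TGF-b and 19 with the siRNA, a ratio of 0.81 (-0.28 to 2.08). Of the 6 T set regions of Sfrp1 with TGF-b, 3 were at least 2-fold lower, against 42.1% of all regions, all of them intronic, going from 28 NC reads to 7 TGF-b reads, from 18 to 6, and from 25 to 9. The windows of the last 2 overlap. Dkk1, a classical target of beta-catenin, had a region in the S set alone, a 5′ UTR region with 17, 30 and 14 reads and ratios of 0.24 (-0.63 to 1.23) and -0.99 (-2.07 to -0.08). Sfrp2 was likewise called in the S set alone, at 4, 9 and 5 reads, and Dkk3 and Sfrp5 in the T set alone. Dkk3, a Dkk family member with weaker ties to LRP6, had introns with 21 and 7 reads and 30 and 13 reads in NC and TGF-b, ratios of -1.37 (-2.97 to -0.21) and -1.10 (-2.22 to -0.17). Both intervals include -0.65, the median of all regions. Sfrp4 had 6 NC reads and 14 TGF-b reads in a T set intron, a ratio of 1.21 (-0.13 to 3.0), and 4 TGF-b reads and 14 siRNA reads in an S set region inside Nme8, a ratio of 1.70 (0.25 to 3.98).

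The intracellular genes Axin1, Axin2 and Ctnnb1 had 17 T set regions with TGF-b, with a median of -0.82. Axin1 (ENSMUSG00000024182), the scaffold of the destruction complex, held the deepest regions of the whole group, a pair at its promoter whose windows overlap and whose NC reads were 84 and 83. The one found in both T set tables, at chr17:26357313-26357647, had 83, 57 and 40 reads in NC, TGF-b and siRNA, ratios of -0.59 (-1.11 to -0.10) and -0.02 (-0.65 to 0.58). On the median-centred scale the first became 0.06 and the second -0.99, so both depend on the scaling. The overlapping S set region at chr17:26357384-26357700 held 16, 43 and 23 reads, ratios of 0.83 (0.03 to 1.81) and -0.84 (-1.67 to -0.11), with TGF-b the highest library. A further promoter region of Axin1, at position -193 from another start, held 1, 15 and 0 reads in the T set. Its TGF-b ratio was 3.17 (1.38 to 9.47), and the siRNA library was at least 2.94-fold lower than TGF-b when 3 reads are allowed for the 0, with an upper interval limit of -1.40.

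Axin2, a feedback inhibitor and a widely used readout of beta-catenin activity, held 7, 13 and 18 reads at position -26 from its start in the T set. The ratios, 0.92 (-0.43 to 2.57) and 0.91 (-0.17 to 2.09), had intervals that span 0. The first interval lay above -0.65 and the second included 0.97, the medians of all regions in those tables. Its 5′ UTR region in the S set held 9 reads in NC and 14 in TGF-b, a ratio of 0.01 (-1.24 to 1.46). Ctnnb1 had 9 T set regions with TGF-b, and 6 were at least 2-fold lower, against 42.1% of all regions. One of them, with 25, 6 and 1 reads, lay at position -2079 from a start, inside another gene (ENSMUSG00000086365). It was called only in TGF-b, although NC held more reads. The TGF-b ratio was -1.80 (-3.54 to -0.65), with the upper limit at -0.65, the median of all regions. The S set promoter region of Ctnnb1, at position -161, held 12, 26 and 11 reads, ratios of 0.50 (-0.48 to 1.68) and -1.10 (-2.34 to -0.11).

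The overlap of the 2 sets was counted for members and for all regions. In TGF-b against NC, 5 of 171 T set members (2.92%) overlapped a member of the S set by at least 1 bp, and these were 5 of 48 S set members (10.4%). Of all T set regions 3.98% overlapped any S set region, and of all S set regions 12.7% overlapped any T set region. The shares of all regions thus have a wider target than those of the members, and the 2 are not measured alike. With the siRNA it was 5 of 142 (3.52%, against 4.69%) and 5 of 49 (10.2%, against 15.9%). Within 3 kb of a start lay 4 and 5 of these pairs. The intervals of the sets were apart at Axin1 with TGF-b and at Sfrp1 with the siRNA, and they overlapped at the other 8 pairs. Since the tables were scaled separately, a ratio of one set is not on the scale of the other.

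**Figure D4:**
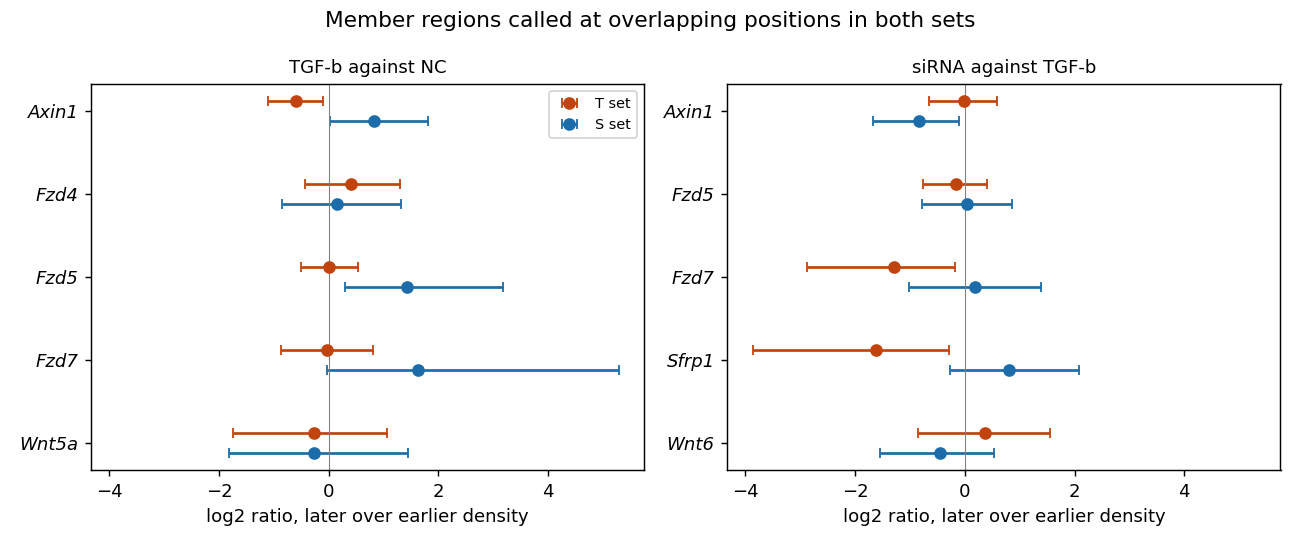
Log2 ratio of densities (x axis) with 95% counting intervals for member genes (y axis) whose regions overlapped between the T set and the S set, TGF-b against NC on the left and siRNA against TGF-b on the right. On the deposited scale the intervals are apart at Axin1 on the left, at -0.59 and 0.83, and narrowly at Sfrp1 on the right, at -1.61 and 0.81.

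Of 52 other genes of the pathway, among them the R-spondins, Lgr receptors, Dvl adaptors, Gsk3 kinases and TCF/LEF factors, 48 had a region in each T set table. In TGF-b against NC, 50 of their 294 T set regions were at least 2-fold higher (17.0%, against 17.3% of all regions) and 108 lower (36.7%, against 42.1%), with a median of -0.53, and with the siRNA 120 of 292 were higher (41.1%, against 49.7%) and 48 lower (16.4%, against 16.2%), with a median of 0.64. For the S set, 37 genes gave 69 regions with TGF-b, 14 higher (20.3%, against 17.4%) and 15 lower (21.7%, against 26.7%). With the siRNA 36 genes gave 79, of which 14 were higher (17.7%, against 15.1%) and 15 lower (19.0%, against 27.8%).

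The cell type could not be checked by transcripts, since chromatin regions do not measure RNA. Regions were assigned to 5 of 6 fibroblast markers in the T set with TGF-b and to all 4 cardiomyocyte, 3 endothelial and 3 macrophage markers, with medians from -1.18 to -0.53. Of the 6 fibroblast markers, 2 had regions in each S set table. With TGF-b these were 2 regions, both at least 2-fold lower (against 26.7% of all regions, median -2.29), and with the siRNA 4 regions, each at least 2-fold higher (against 15.1%, median 1.49). The S set medians with TGF-b and the siRNA were -0.57 and -0.34 for the cardiomyocyte, 0.01 and 0.07 for the endothelial, and -0.0027 and -0.72 for the macrophage markers. Depth was low throughout. Member regions held a median of 10 reads in NC and 7 in TGF-b in the T set and 8 and 12 in the S set, and 64 of the 171 had 3 or fewer reads in at least 1 library. Reads of the shared TGF-b library agree exactly between its 2 tables in all 51 T set and 31 S set members found in both.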

How the data were processed

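The 6 CUT&Tag libraries were compared in pairs within 4 tables. Per the submitters' processing notes reads were mapped with BWA 0.7.12 to mm10, whereas the study's methods name GRCm39, Bowtie2 and MACS2 (written Masc2). Only 881 of 47510 matched transcripts in the tables have GRCm38 coordinates, so coordinates were taken as GRCm39. The authors deposited normalized read density, a signal of reads plus 1 per kb in a 2 kb window, rescaled along a straight line per pair so that shared peaks centre on 0. Changes common to all shared peaks are removed by this step, and library totals were not used here. The tables also hold the authors' M and A values, log2 ratio and p-value, which were not used. Undoing the line gave whole reads within 0.1 read in 99.98% to 99.99% of regions. The recovery was tested on simulated data.

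Members and gene lists were chosen with earlier results of these data known. Named regions included, for each gene, the one within 3 kb of a start with the highest summed density per set. They also included the 3 largest rises and 3 largest falls per comparison among regions with at least 20 reads over both libraries. The 5 deepest regions per comparison and a region of every gene of the S set completed them. The text above does not describe all of these regions. Others named in the text were chosen after their values were seen. Calls were 2-fold, or an exact 95% counting interval (Clopper-Pearson) that excludes 0. Intervals cover counting error only, and reads are not separated from PCR copies. Python 3.11.15 with pandas 2.3.3, numpy 2.4.6 and scipy 1.17.1 was used. Alternatives were centring on the median, no line, a floor of 3 reads, at least 10 reads in 1 library and a 1.5-fold threshold. Leaving out Wnt5a was added after seeing the data.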

Additional observations from a re-analysis of the deposited data

Results flagged for a closer look

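The medians of the member regions had opposite signs in the 2 sets under each contrast on the deposited scale. For TGF-b against NC the T set median was -0.69 and the S set median 0.18, and for siRNA against TGF-b they were 0.62 and -0.43. The S set value of 0.18 had a rank interval of -0.26 to 0.73. With the median of all regions set to 0, the siRNA medians were -0.35 and -0.22, so their signs no longer differed, and the TGF-b medians were -0.042 and 0.38. This contrast of sets had no test, as each treatment had 1 library per set and the tables were scaled separately. The medians of all regions were -0.65 and -0.20 with TGF-b, and 0.97 and -0.21 with the siRNA.

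The Axin1 promoter differed in sign between the sets with TGF-b, with a T value of -0.59 and an S value of 0.83, and the T value became 0.0587 once the median of all regions was set to 0. The Sfrp1 promoter did so with the siRNA, with a T value of -1.61 and an S value of 0.81. Neither difference was tested beyond counting error.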

How the results depend on the processing

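No paired analysis was possible because each treatment had 1 library per set. Centring on the median of all regions changed the T set most. The member median became -0.042 with TGF-b, with 44 regions at least 2-fold higher and 38 lower, and reversed to -0.35 with the siRNA, with 29 higher and 52 lower. Without the authors' line the median became 0.76 in S set TGF-b against NC, with 21 regions higher, and 0.16 in T set siRNA against TGF-b. With reads of 3 or fewer set to 3, the T set siRNA table had 19 regions lower (13.4%, against 7.92% of all regions at that floor), and the medians were -0.57, 0.18, 0.52 and -0.43 for T set and S set TGF-b, then T set and S set siRNA. Requiring at least 10 reads in 1 library left 15 higher (14.0%, against 14.9% of all regions so filtered) and 42 lower (39.3%, against 45.8%) in T set TGF-b, 4 lower (11.4%, against 21.9%) in S set TGF-b, 35 higher (42.7%, against 49.1%) and 19 lower (23.2%, against 18.0%) in T set siRNA, and 3 higher (9.09%, against 12.7%) in S set siRNA, where the median became -0.81 from -0.43 (all regions -0.37), all from fewer regions tested. At 1.5-fold, 8 were higher (16.3%, against 25.3%) and 22 lower (44.9%, against 38.7%) in S set siRNA. Of the 116 named ratios, 22 changed sign on centring. In 2 of these the counting interval had excluded 0, both at the Axin1 promoter in T set TGF-b, which became 0.0168 and 0.0587. Beyond those 2, centring moved 6 ratios past their interval. Without the line 6 changed sign, all within their interval, and at the floor of 3 the number was 0. Leaving out Wnt5a kept the sign of all 4 medians and their counts within 1.5 times, and lowered the share of in-gene members inside another gene from 34.9% to 19.2% in T set TGF-b. The cause of these shifts was not tested. Depth limits single regions, of which 64 of 171 in T set TGF-b held 3 or fewer reads in a library.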
